A study of Mus musculus with 4 samples.

Results

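Slc7a11, Cbs, Mgst1, Prdx6 and Slc6a6 are genes of cysteine supply, glutathione-dependent detoxification and taurine transport. They are 5 of the 383 genes that were counted in single cells of the mouse striatum by MERFISH, an imaging method that reads each RNA molecule in place from repeated rounds of fluorescent probes. The genes were chosen by name, with earlier results of these data known. Each was located in the GRCm38 assembly with the GENCODE vM21 annotation. Slc7a11 lies at chr3:49892526-50443614 on the minus strand, and Cbs lies at chr17:31608894-31637238 on the minus strand. Mgst1 lies at chr6:138140316-138156755 and Slc6a6 at chr6:91684053-91759066, both on the plus strand. Prdx6 lies at chr1:161240112-161251219 on the minus strand. The mouse genome holds a copy of Prdx6 named Prdx6b on chromosome 2, and 4.41% of the 30-base windows of the longest Prdx6 transcript also occur in Prdx6b.

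Neurons and glia need cysteine to make glutathione, the main small antioxidant of the cell. Slc7a11 (xCT) is the cystine-glutamate antiporter, which brings in cystine and releases glutamate, and Cbs (cystathionine beta-synthase) starts the route that makes cysteine from homocysteine. Mgst1 is a membrane-bound glutathione transferase and peroxidase, and Prdx6 is a peroxiredoxin that reduces peroxides, lipid peroxides among them, with the help of glutathione. Slc6a6 carries taurine, an osmolyte that cells make from cysteine.

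The samples were 4 coronal sections through both striata, 10 µm thick, 2 from mice of 2 months (Young 1 and Young 2) and 2 from mice of 18 months (Aged 1 and Aged 2). The labels give age as the one difference between the groups. The study's methods name wild-type C57BL/6NTac mice and no transgene or treatment for these sections. Nothing in the labels says which mouse gave which section, so p-values measure the spread between sections. After the filter on small and empty cells, 68011, 70774, 68415 and 74624 cells were kept in Young 1, Young 2, Aged 1 and Aged 2. No cell identifier was shared between sections. The sections held 36116711, 31274476, 18816375 and 29078209 transcripts, and the median kept cell had 400, 325, 215 and 293. Aged 1 was therefore the shallowest section. Both aged sections were below both young ones on each of these measures, so age and depth cannot be told apart here.

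Cells were grouped without the 5 genes into 12 classes, each named "-like" for the marker list that led it. Of 281824 kept cells, 235670 were named and not removed as mixed, although they still held some transcripts of other classes' markers, and every class held at least 50 cells in every section. Levels are transcripts of a gene per 10000 transcripts of all 383 genes, pooled from all cells of a class within a section, with mean ± SD over the 4 sections (n = 4). Each gene is compared only with itself, since probes differ between genes. Astrocyte-like cells numbered 20402, oligodendrocyte-like cells 24892, endothelial-like cells 15631 and fibroblast-like cells 2462. Fibroblast-like cells were led by Aldh1a2, Aox3 and Mgp, and 75.6% to 88.1% of them lay within 100 µm of the outer border of the section, against 4.52% to 5.66% of all cells. They also held 411 to 438 transcripts of the 7 astrocyte markers per 10000, which was 18.5% of the sum in astrocyte-like cells, with none of the 7 at 0.

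Slc7a11 was highest in fibroblast-like cells at the brain's surface, next in border macrophage-like cells and then in astrocyte-like cells. In fibroblast-like cells its level was 417.6 in Young 1, 490.2 in Young 2, 484.4 in Aged 1 and 467.7 in Aged 2 (465 ± 33.0, SD, n = 4). Astrocyte-like cells held 76.3, 80.0, 88.0 and 85.7 in the same order (82.5 ± 5.35, SD, n = 4). No fibroblast value came near an astrocyte value, and the fibroblast mean was 564% of the astrocyte mean. The fibroblast-like cells carried 18.5% of the astrocyte marker sum, and the part of astrocyte transcripts in their level was not tested. Border macrophage-like cells, the macrophages of meninges and vessel walls, held 228.7, 344.8, 367.6 and 342.5 (320.9 ± 62.5, SD, n = 4). These cells also carried 72.3% of the fibroblast marker sum of fibroblast-like cells. When cells within 20 µm of a fibroblast-like cell were left out, 429 of 790 border macrophage-like cells remained and their mean Slc7a11 level was 252.9. How much of that level belongs to neighbouring fibroblasts was not tested. The fibroblast name itself depends on the clustering: a single finer clustering gave it to 183 of the 3868 cells so named here, because the fibroblast and border macrophage lists scored alike in its Aldh1a2-led clusters. The cells that it did name fibroblast-like were largely others, led by Acta2 and Myl9 or by Aldh1a2, Aox3 and Vwf, so it does not test the fibroblast level given here.

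Endothelial-like cells followed astrocyte-like cells for Slc7a11, with 27.4, 32.1, 35.1 and 34.7 (32.3 ± 3.54, SD, n = 4). One endothelial-like cluster, led by Vwf, the clotting factor of larger vessels and veins, held 131.4, 175.2, 202.4 and 208.1. Its 10 leading genes included the fibroblast genes Aldh1a2 and Aox3. The other 7 endothelial-like clusters with at least 50 cells in every section held 3.94 to 23.9. Without the cells within 20 µm of a fibroblast-like cell, the endothelial mean was 21.1. In the finer clustering, where the Vwf-led cells were not named endothelial-like, the class held 9.47, 10.2, 11.7 and 11.6. Within 100 µm of the section border endothelial-like cells held 134.2, 139.4, 179.5 and 155.3, and 75.5, 99.2, 102.6 and 87.3 once those near fibroblast-like cells were left out. Cells 300 to 600 µm inside held 7.95 to 17.9, so endothelial-like cells near the surface had the higher level in every section. The class as a whole carried 37.9% of the fibroblast marker sum of fibroblast-like cells, and in the Vwf-led cluster the fibroblast list came second at 3.48-fold. How much of the surface level belongs to fibroblasts was not tested. A pair of clusters led by the smooth muscle genes Acta2 and Myl9 stayed unnamed because the mural and fibroblast lists scored alike, and they held 121.6 to 140 and 63.2 to 97.2.

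The remaining classes had little Slc7a11. Neuroblast-like and mural-like cells both averaged 13.6, and neither was higher in all 4 sections. Microglia-like cells averaged 9.03, and oligodendrocyte-like cells held 5.88, 6.06, 5.68 and 5.61 (5.81 ± 0.201, SD, n = 4). Neuron-like, medium spiny neuron-like and ependymal-like cells averaged 4.59, 4.12 and 3.98. Across the 48 values of 12 classes in 4 sections, the panel genes whose log2 level followed Slc7a11 most closely were Aldh1a2 (Pearson r = 0.865), Aox3 (r = 0.860) and Vcam1 (r = 0.826). The classes share their sections, and these correlations are a description.

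**Figure D1:**
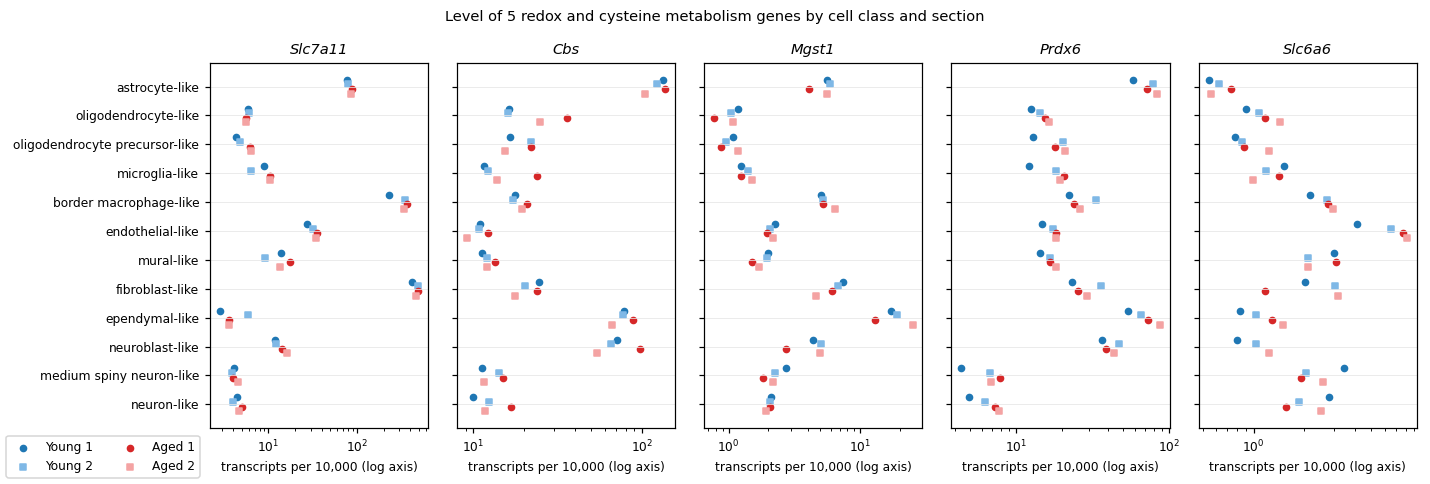
Level of each gene by cell class, 1 point per section (blue young, red aged; circles replicate 1, squares replicate 2), in transcripts per 10000 on a log axis of its own for each gene. Slc7a11 peaks in fibroblast-like cells (417.6 to 490.2), Cbs and Prdx6 in astrocyte-like cells or ependymal-like cells, Mgst1 in ependymal-like cells (13.1 to 25.1) and Slc6a6 in endothelial-like cells (4.11 to 8.12); the value of 0 for Slc6a6 in neuroblast-like cells of Aged 1 is not drawn.

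Cbs was an astrocyte-lineage gene in these sections. Astrocyte-like cells held 133.6, 123.3, 137.6 and 104.3 (124.7 ± 14.9, SD, n = 4), and ependymal-like cells, which line the ventricles, held 77.9, 77.3, 88.6 and 66.7 (77.6 ± 8.96, SD, n = 4). The astrocyte level was higher in each of the 4 sections. Neuroblast-like cells followed with 72.1 ± 18.6 (SD, n = 4) and were below ependymal-like cells in 3 of 4 sections. This class joined a cluster led by Sox4, Dlx6os1 and Sox11 with a cluster of 571 cells led by Top2a, Sox11 and Ect2. It also carried 22.3% of the astrocyte marker sum of astrocyte-like cells. Without neuroblast-like cells within 20 µm of an astrocyte-like cell, their mean was 60.0.

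Oligodendrocyte-like cells, the myelinating cells, came next for Cbs with 16.4, 16.1, 36.2 and 24.7 (23.3 ± 9.46, SD, n = 4), above fibroblast-like cells in 2 of 4 sections. The remaining classes averaged between 10.8 in endothelial-like cells and 21.6 in fibroblast-like cells. The fibroblast mean was 17.3% of the astrocyte mean, next to the 18.5% of the astrocyte marker sum in the same cells. In ependymal-like cells Cbs stood at 62.3% of the astrocyte level and the astrocyte markers at 44.2%. The part of astrocyte transcripts in the fibroblast and ependymal levels was not tested. Within astrocyte-like cells Cbs was uneven: a cluster led by Prodh and F3 held 178.3, 156.4, 174 and 140.7, and a cluster led by Gfap, Aqp4 and C4b held 91.0, 88.2, 90.7 and 77.9. That second cluster held 131.9, 110.2, 132.4 and 131.5 Slc7a11 transcripts per 10000, more than the 100.8, 106.2 and 102.7 of the first in 3 sections and about its 110.3 in Young 2. The fibroblast list was the second best in the Gfap-led cluster, at 1.91-fold. Across classes Thbs4 (r = 0.881), Sox9 (r = 0.874) and Ezr (r = 0.874) followed Cbs most closely over the 48 values.

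Prdx6 was shared by astrocyte-like and ependymal-like cells. Astrocyte-like cells held 58.1, 79.1, 72.6 and 83.2 (73.3 ± 11, SD, n = 4), and ependymal-like cells held 54.4, 65.6, 73.2 and 87.2 (70.1 ± 13.8, SD, n = 4). Each class was the higher in 2 of 4 sections, so their order was not settled, and counted per cell volume the ependymal-like cells were higher (log2 astrocyte over ependymal = -0.34, SD 0.07). Neuroblast-like cells averaged 41.5 and fibroblast-like cells 28.4. That fibroblast level was 38.8% of the astrocyte mean. The same cells carried 18.5% of the astrocyte marker sum, and the part of astrocyte transcripts in the level was not tested. Oligodendrocyte-like cells held 12.6, 14.4, 15.5 and 16.4 (14.7 ± 1.62, SD, n = 4), and neuron-like cells averaged 6.54, the medium spiny neuron-like cells 6.50. Young 1 was the lowest section for Prdx6 in 12 of 12 classes. The genes that followed Prdx6 most closely were Gja1 (r = 0.933), the gap junction protein of astrocytes, Ezr (r = 0.929) and Prodh (r = 0.913).

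Mgst1 was highest in ependymal-like cells at 17.3, 19.1, 13.1 and 25.1 (18.6 ± 4.98, SD, n = 4). Fibroblast-like cells followed with 7.47, 6.75, 6.11 and 4.66, and astrocyte-like cells held 5.57, 5.89, 4.05 and 5.60 (5.28 ± 0.828, SD, n = 4). The ependymal level was above that of every other class in every section, at 353% of the astrocyte mean. Border macrophage-like cells averaged 5.48 and did not differ in order from astrocyte-like cells, each being higher in 2 sections. A Thbs4-, C4b- and Gfap-rich astrocyte-like cluster held 10.6, 12.1, 6.31 and 11.2, and the Prodh-led cluster held 3.33, 4.18, 2.77 and 4.66. In the Thbs4-rich cluster the ependymal list came second at 2.28-fold, and its part in the Mgst1 level was not tested. Oligodendrocyte-like cells and their precursors were lowest, both at 1.02. Ezr (r = 0.822), Sox9 (r = 0.809) and Gja1 (r = 0.798) followed Mgst1 most closely.

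Slc6a6 had another pattern. Endothelial-like cells held 4.11, 6.51, 7.74 and 8.12 (6.62 ± 1.81, SD, n = 4), and border macrophage-like cells, the next class, 2.17, 2.71, 2.78 and 2.95. The endothelial level was higher in 4 of 4 sections. Mural-like, medium spiny neuron-like, fibroblast-like and neuron-like cells averaged 2.57, 2.50, 2.35 and 2.18, and no neighbours from border macrophage-like cells down to these kept their order in every section. Astrocyte-like cells had the lowest mean of the 12 classes, 0.615 ± 0.0891 (SD, n = 4), from 54 to 64 transcripts in a section. The neuroblast-like cells of Aged 1 had no Slc6a6 transcript in 168 cells. The endothelial genes Vwf (r = 0.858), Cldn5 (r = 0.802) and Bmx (r = 0.802) followed it most closely. Cbs and Slc6a6 had opposite class patterns, with r = -0.69 over the same 48 values.

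For 4 of the 5 genes the highest class exceeded the next one in every section, Prdx6 being the exception. Over all 55 pairs of classes that follow one another in these orders, 26 kept their order in 4 of 4 sections. With 4 sections an exact two-sided sign-flip permutation test cannot go below p = 0.13, and the Benjamini-Hochberg value over the 55 pairs was 0.264.

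**Figure D2:**
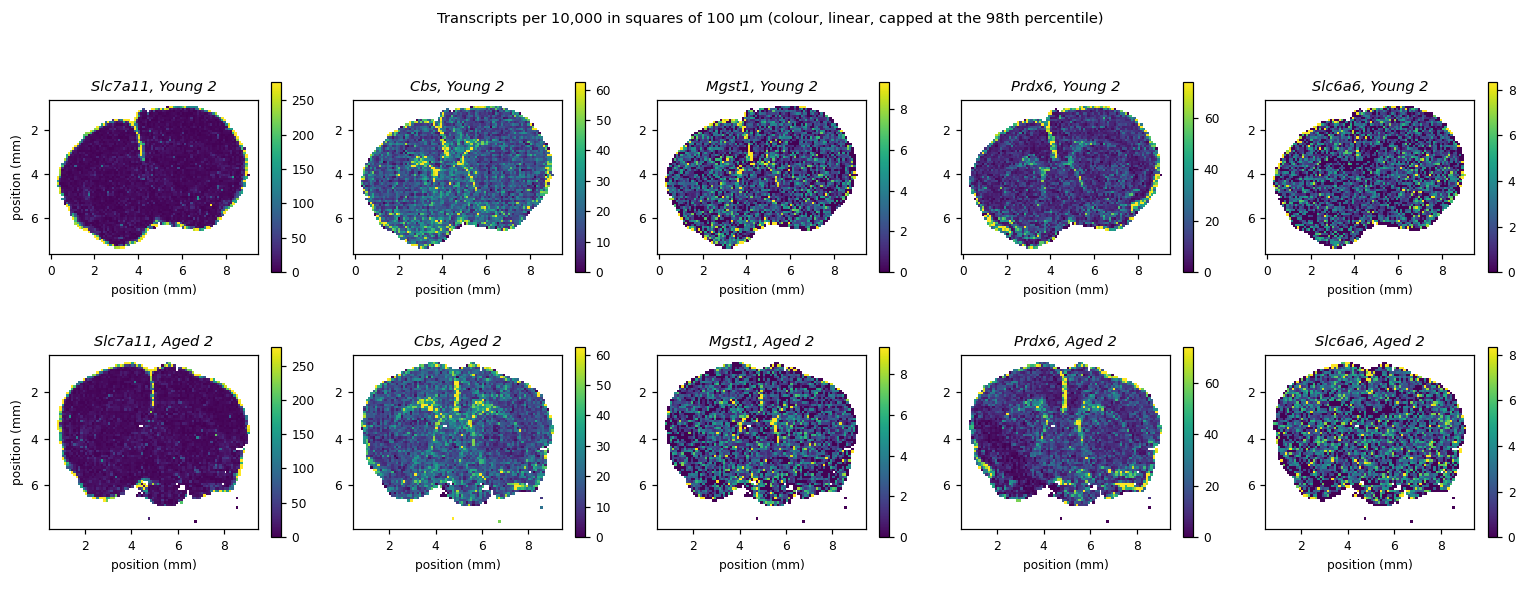
Maps of the 5 genes in Young 2 (top) and Aged 2 (bottom), with the dorsal side up, position in mm on both axes and colour for transcripts per 10000 in squares of 100 µm (linear, all kept cells, capped at the 98th percentile). Slc7a11 outlines the brain's surface and the fissure between the hemispheres, Cbs, Mgst1 and Prdx6 mark the fissure and the walls of the ventricles, and Slc6a6 shows no outline of a structure.

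The maps put the class levels in place. Slc7a11 followed the surface and the midline fissure, where the fibroblast-like cells lay. Astrocyte-like cells also held more Slc7a11 near the surface. Within 100 µm of the border their level was 88.8, 116.6, 127.5 and 101, against 73.8, 65.7, 71.0 and 78.0 at 300 to 600 µm. The outer band was the higher in 4 of 4 sections, and it remained so without cells within 20 µm of a fibroblast-like cell, at 83.6, 107.8, 119.4 and 94.8. The Cbs map of Young 2 showed a regular grid, and one side of Aged 2 was low for Prdx6. Astrocyte-like cells on either side of the middle of Aged 2 held 72.6 and 94.0 Prdx6 transcripts per 10000, a 1.30-fold difference, against 1.02- to 1.05-fold in the other sections.

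Among fibroblast-like cells, position made no called difference. At the border the Slc7a11 level was 417, 482, 487 and 482, and further inside, where 59 to 167 cells were left in a section, it was 422, 548, 439 and 428. Values overlapped, and edgeR's quasi-likelihood test with section as a block gave a log2 difference of +0.26 ± 0.16 (SE) with an adjusted p of 0.361. None of the 5 genes was called, where 8.03% of 299 genes tested were. Slc6a6 (+1.07, adjusted p = 0.280) and Prdx6 (+0.57, adjusted p = 0.266) had the largest of the 5 estimates. DESeq2 and limma also called 0 of the 5, and at an unadjusted p under 0.05 the count was 66 of 299 genes and 0 of the 5. Inner fibroblast-like cells carried 210 to 402 transcripts of the 5 mural markers per 10000 and border cells 118 to 160, and the part of this in the estimates was not tested.

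White matter, where at least 40% of the cells within 150 µm are oligodendrocyte-like, was compared with grey matter inside the oligodendrocyte-like class. Cbs was 19.4, 17.5, 44.1 and 29.2 in white matter and 14.5, 15.1, 29.5 and 20.7 in grey matter. White matter was the higher in each section, with a log2 difference of +0.76 ± 0.10 (SE) and an edgeR adjusted p of 2.73e-05. In this contrast 50% of the 382 genes tested were called, so a call alone does not set a gene apart. Without TMM scaling the Cbs difference was +0.43, and counted per cell volume it was +0.29, both still called. Markers of other cells differed between the zones too. The astrocyte sum was 77.5 to 95.4 in white and 119 to 128 in grey matter, and the neuron sum 51.9 to 57.9 and 175 to 208. The fibroblast sum went the other way, at 35.4 to 46.4 in white and 15.5 to 24.1 in grey matter. The part of these markers in the differences was not tested.

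Prdx6 in the same cells was 13.6, 14.3, 16.1 and 16.9 in white matter and 12.02, 14.5, 15.05 and 15.8 in grey matter. The levels differed little and Young 2 went the other way, although the TMM-scaled test gave +0.41 ± 0.10 (SE, adjusted p = 0.00306). Slc7a11 was 5.65, 7.31, 5.63 and 5.42 in white and 6.03, 5.19, 5.73 and 5.77 in grey matter, higher in white matter in Young 2 alone. Its TMM-scaled difference was +0.39 ± 0.13 (SE, adjusted p = 0.0224). Both calls rest on the scaling: TMM placed the median of all 382 genes at +0.12 and plain library sizes at -0.20, where Prdx6 was +0.09 and Slc7a11 +0.07. The split of called genes moved with it, from 102 higher and 89 lower to 29 higher and 127 lower. Without Young 2 the Slc7a11 difference was +0.26 with an adjusted p of 0.167, and without Aged 2 it was +0.41 with 0.0678. It was also not called with zones at a share of 50% (+0.19, adjusted p = 0.167), with the rule of 3 markers of each class for mixed cells (+0.17, adjusted p = 0.360) or in the finer clustering (+0.33, adjusted p = 0.0554). Mgst1 (+0.20, adjusted p = 0.363) and Slc6a6 (-0.04, adjusted p = 0.870) were not called.

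**Figure D3:**
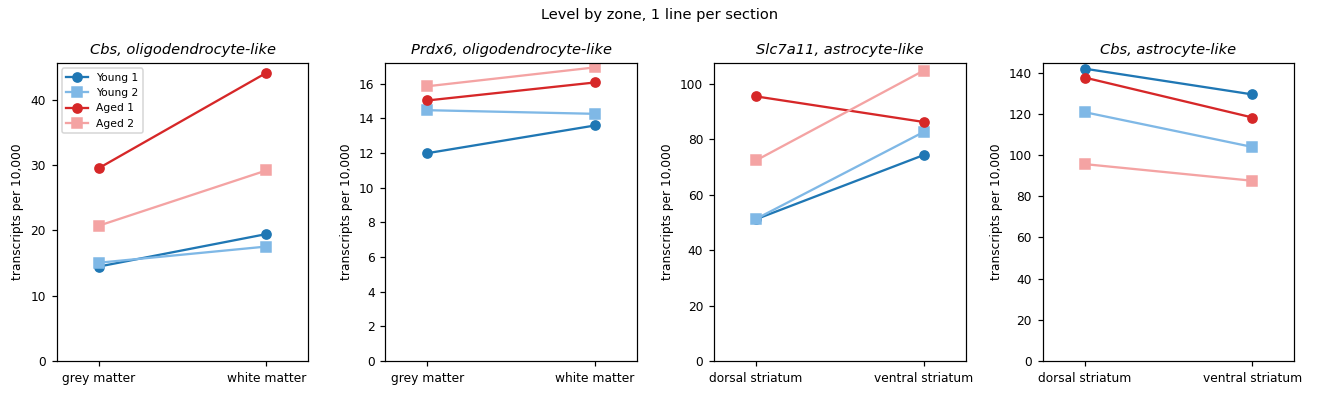
Level by zone in transcripts per 10000 on axes that start at 0, 1 line per section, for Cbs and Prdx6 in oligodendrocyte-like cells of grey and white matter and for Slc7a11 and Cbs in astrocyte-like cells of the dorsal and ventral striatum. Cbs rises from grey to white matter in every section, with both aged sections above both young ones, and astrocyte Slc7a11 is higher ventrally in 3 of 4 sections.

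Within the striatum, Slc7a11 and Cbs of astrocyte-like cells lay in opposite directions along the dorsal to ventral axis. Slc7a11 was 51.2, 51.3, 95.5 and 72.4 dorsally and 74.3, 82.7, 86.2 and 105 ventrally, from 464 to 618 cells on each side of a section. The ventral side was higher in 3 of 4 sections, Aged 1 going the other way, and the dorsal over ventral log2 difference was -0.37 ± 0.10 (SE, edgeR adjusted p = 0.00807). Of 313 genes tested, 22.4% were called. DESeq2 gave -0.36 with an adjusted p of 0.233, and leaving out Aged 2 gave -0.30 with 0.0770.

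Cbs was 142, 121, 138 and 95.6 dorsally and 129, 104, 118 and 87.5 ventrally. The dorsal side was higher in 4 of 4 sections, by +0.21 ± 0.06 on the log2 scale (SE, edgeR adjusted p = 0.0124). With mixed cells kept the difference was +0.02 (adjusted p = 0.932), and per cell volume it was +0.13 (adjusted p = 0.329). Without Young 2 it was +0.17 with 0.116. Mgst1 was 8.11, 9.76, 6.25 and 9.68 dorsally against 6.63, 7.75, 6.27 and 7.28, a difference of +0.30 that was not called (adjusted p = 0.147). Prdx6 was not called either (+0.12, adjusted p = 0.290), and Slc6a6 was too sparse to be tested.

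With age, 1 of 58 tests over the 5 genes and 12 classes was called, where 1.37% of all 4147 tests were. At an unadjusted p under 0.05 there were 4 of 58. By class the share of all genes called was 0.262% in astrocyte-like, 1.71% in oligodendrocyte precursor-like, 0.271% in microglia-like, 0.59% in mural-like and 10.9% in ependymal-like cells, and 0% in 6 classes. The called gene was Cbs in oligodendrocyte-like cells. Its levels were 16.4 and 16.1 at 2 months and 36.2 and 24.7 at 18 months, without overlap, an order that Cbs had in 4 of 12 classes. The aged over young log2 difference was +0.93 ± 0.19 (SE, n = 2 against 2) with an edgeR adjusted p of 0.0287, in a class where 4.44% of 383 genes were called. Both zones showed the order. In white matter the log2 difference was +1.02 ± 0.23 (SE, edgeR adjusted p = 6.94e-04), where 10.6% of 378 genes were called with age. In grey matter it was +0.67 ± 0.19 (SE, edgeR adjusted p = 0.105), where 2.88% of 382 genes were called. White matter held 34.9% and 37.2% of these cells at 2 months, 42.1% and 41.6% at 18 months.

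The size of that Cbs difference leaned on Aged 1. This section was the highest of the 4 for Cbs in 11 of 12 classes. Its signal was also uneven: oligodendrocyte-like cells on either side of its middle held 40.5 and 32.3 Cbs transcripts per 10000. The sides held 16.2 and 16.5 in Young 1, 16.1 and 16 in Young 2, and 24.7 and 24.7 in Aged 2. Both sides of Aged 1 were thus above both sides of every other section. Astrocyte-like cells of Aged 1 were even for Cbs, at 139 and 137. Its medium spiny neuron-like cells were not, at 16.5 and 12.6. That was a 1.31-fold difference, against 1.17- to 1.19-fold in medium spiny neuron-like cells of the other sections. The cause of the uneven signal was not tested. Without Aged 1 the log2 difference was +0.62, and without Aged 2 it was +1.18. Each of these fits left 1 aged section, so no spread between aged sections stands behind it. Aged 2, by contrast, was the lowest of the 4 sections for Cbs in 6 of 12 classes, while its oligodendrocyte-like cells exceeded both young sections. The edgeR call was lost without TMM scaling (+0.91, adjusted p = 0.0632) and with mixed cells kept (+0.58, adjusted p = 0.0947). It was lost too with the section number as a replicate block (+0.90, adjusted p = 0.182) or the crossed block (+0.90, adjusted p = 0.149). Per cell volume the values were 0.741 and 0.625 transcripts per 1000 µm3 at 2 months, 0.850 and 0.770 at 18 months. On that scale the difference was +0.25 (adjusted p = 0.534) while the median of all genes was -0.64. The sum of the 7 astrocyte markers in oligodendrocyte-like cells was 112 and 105 at 2 months, 105 and 106 at 18 months, with 0 of 7 called and none at 0. Leaving out oligodendrocyte-like cells within 20 µm of an astrocyte-like cell gave +0.94 with an adjusted p of 0.00615.

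In the other classes no gene of the 5 was called with age. Slc7a11 in fibroblast-like cells differed by +0.07 ± 0.14 (SE, adjusted p = 0.948) and in astrocyte-like cells by +0.12 ± 0.13 (SE, adjusted p = 0.815). In the dorsal striatum alone the astrocyte levels of 51.2 and 51.3 at 2 months lay below the 95.5 and 72.4 at 18 months, with +0.66 ± 0.19 (SE, edgeR adjusted p = 0.0533) where 1.38% of 289 genes were called. In the ventral striatum it was +0.22 ± 0.16 (SE, adjusted p = 0.688). Cbs in astrocyte-like cells differed by -0.12 ± 0.15 (SE, adjusted p = 0.819), with the aged values of 137.6 and 104.3 on both sides of the young ones. In microglia-like cells Cbs was 11.6 and 12.3 at 2 months, 24.03 and 13.9 at 18 months, with +0.55 (adjusted p = 0.338) and Aged 1 as the high value. Without Aged 2 it was +0.91, with Aged 1 alone standing for age. Slc6a6 in endothelial-like cells had both aged values above both young ones, with +0.56 ± 0.23 (SE, unadjusted p = 0.0276, adjusted p = 0.396). Prdx6 in ependymal-like cells was likewise ordered by age, at 54.4 and 65.6 against 73.2 and 87.2, with +0.41 ± 0.18 (SE, adjusted p = 0.137), and in those cells all 5 neuroblast markers were called lower with age, their sum going from 324 and 368 to 138 and 163. Mgst1 had estimates from -0.40 in fibroblast-like cells to +0.19 in border macrophage-like cells, with every adjusted p at 0.676 or above. An order by age was common. Both aged values were the higher in 6 of 12 classes for Slc7a11 and Prdx6, 5 for Slc6a6, 4 for Cbs and 1 for Mgst1. Both were the lower in 4 for Mgst1 and 1 for Slc7a11. With 2 sections against 2, an exact permutation test cannot go below p = 0.333. The share of all genes so ordered was not counted.

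**Figure D4:**
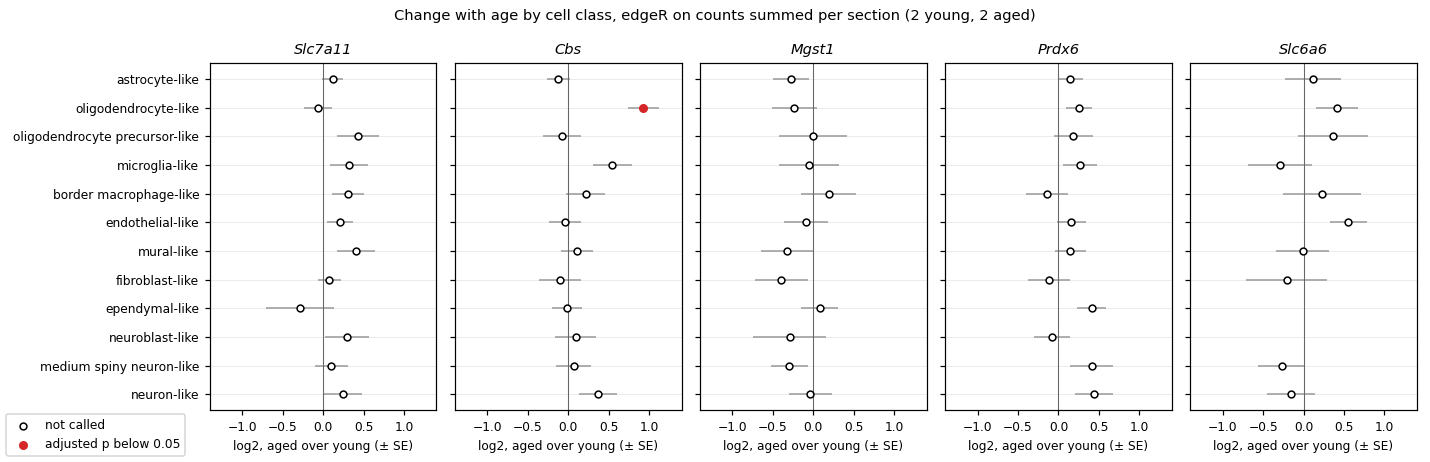
Aged over young log2 difference of each gene in each cell class, from edgeR on counts summed per section (2 young and 2 aged sections), with bars for the standard error. The filled red point, Cbs in oligodendrocyte-like cells (+0.93), is the 1 call among 58 tests; Slc6a6 was not tested in ependymal-like and neuroblast-like cells.

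Whether a change with age differed between zones was tested as an interaction. None of the 9 tests over these genes was called by edgeR, DESeq2 or limma, where 2.88% of genes were called between white and grey matter and 0% between dorsal and ventral striatum. At an unadjusted p under 0.05 there were 70 of 382 and 10 of 313 genes, and 2 of the 9 tests. The Cbs change with age was larger in white than in grey matter by +0.38 ± 0.12 (SE, unadjusted p = 0.0134, adjusted p = 0.124). Slc6a6 in oligodendrocyte-like cells had +0.81 (adjusted p = 0.137). For Slc7a11 in astrocyte-like cells the dorsal minus ventral change was +0.42 ± 0.20 (SE, edgeR adjusted p = 0.932), and without Aged 2 it was +0.77. In that estimate Aged 1 alone stands for age.

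Related genes of the panel showed few changes with age in the same classes, beside the 1.37% of all tests called. The 3 calls all fell in ependymal-like cells, where 10.9% of 274 genes were called, 30 of the 57 calls over all classes. Among 8 redox and metal enzymes, 1 of 93 tests was called, Trf, the iron carrier transferrin, in ependymal-like cells (+1.38, adjusted p = 0.00547). The levels of Trf there were 1.54, 4.26, 7.06 and 8.20. The oligodendrocyte marker sum in these cells was 28, 38.7, 47.1 and 42.1, with 2 of its 5 tested genes called higher. The median of the 93 differences was +0.01, beside -0.004 over all 4147. None of 82 tests over 7 stress response regulators was called, and 9 had an unadjusted p under 0.05, with a median of -0.003. Of 72 tests over 6 amino acid genes 2 were called, both in ependymal-like cells. Gatm, which makes the precursor of creatine, was higher (+1.34, adjusted p = 0.0318), and Ddah1, which breaks down methylarginines, was lower (-0.81, adjusted p = 0.00453). The Gatm levels were low there, at 1.3, 2.65, 4.92 and 5.22, beside 454 to 639 in oligodendrocyte-like cells. The part of oligodendrocyte transcripts in the Trf and Gatm differences was not tested.

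Between white and grey matter more of these genes were called in oligodendrocyte-like cells, beside the 50% of all genes. Of the redox and metal enzymes 3 of 8 were called higher in white matter, Trf (+0.37), Cyb5r3 (+0.31) and Prodh (+0.39). Without TMM scaling none of these 3 was called, at +0.04, -0.02 and +0.07, and the level of each was lower in white matter in at least 1 section. Cp, the copper protein ceruloplasmin, was lower (-0.84) and remained so without TMM (-1.17). Of the stress response regulators 2 of 7 were called higher, the transcription factors Jun (+0.61) and Foxo1 (+0.38). Without TMM Jun was still called (+0.28, adjusted p = 0.0180) and Foxo1 was not (+0.05, adjusted p = 0.681). Of the amino acid genes Gatm was higher (+0.57) and 4 of 6 were lower, namely the GABA transporter Slc6a11 (-2.15), Slc7a1, a carrier of cationic amino acids (-0.65), Slc38a1, a carrier of glutamine (-0.61), and Ddah1 (-0.35). These 5 calls held without TMM, with Gatm at +0.24. Slc6a11 also stands in the astrocyte marker list. In astrocyte-like cells Prodh, which starts the breakdown of proline, was higher dorsally (+0.46, adjusted p = 1.02e-05), as was Jun (+0.67, adjusted p = 7.88e-04), and Slc6a11 was lower (-0.27, adjusted p = 0.00248).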

How the data were processed

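The deposited files hold counts, the number of decoded transcripts per gene and segmented cell, one file per section. MERLIN served the authors for decoding and Vizgen software for segmentation, and the cell volume and position signals in the deposited files come from the latter. The authors' table of mean signal per cell served to check the counts, whose means differed from it by at most 4.66e-09. Cells with under 10 genes or 50 µm3 were removed as in the study. Cells were clustered (Louvain, igraph 0.11.9) without the 5 genes and named from marker lists, since no annotation by the authors was used here. The naming rule and the rule that removed 41738 cells with markers of 2 classes were set after seeing the data. The 5 genes and all lists were chosen with earlier results of these data known. Counts were summed per section, class and zone and tested with edgeR 4.0.16 (TMM, glmQLFTest), Benjamini-Hochberg over all genes tested, threshold 0.05. On simulated counts for astrocyte-like cells the age test recovered 88.5% of 200 changed genes. For age by zone in oligodendrocyte-like cells it recovered 67.5%. The first simulation changed 200 of 381 tested genes, while 0.262% of genes were called with age in the real astrocyte-like cells. These shares are therefore not the power of the tests in these data. Alternatives were DESeq2 1.42.0, limma 3.58.1, other scalings, cell sets and zones, a replicate block, and leaving out each section. The named genes were the 5 genes, called genes of 3 lists and the 3 most similar genes.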

Additional observations from a re-analysis of the deposited data

How the results depend on the processing

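Of the 58 tests of a gene in a class with age 1 was called, and the number was 0 without TMM scaling, with cell volume as offset and with mixed cells kept. Each fit that left out a section kept 1 section at that age, so its calls rest on no spread within that age and are not counted here. Section numbers come from the sample titles and are shared between the ages. A header line of the young sections, absent from the aged ones, numbers the young sections differently. The difference between replicates 1 and 2 correlated between young and aged sections at -0.438 to -0.003 over classes. There is only 1 such difference per age, so whether same-numbered sections share more than a number cannot be told. With the replicate block 0 genes were called, with Cbs in oligodendrocyte-like cells at +0.90 (adjusted p = 0.182), and with the crossed pairing, chosen after seeing the data, 0 as well (+0.90, adjusted p = 0.149). Over all classes the block called 39 genes and the crossed pairing 57, beside 57 in the fit without a block. Between white and grey matter 3 genes were called and 1 without TMM scaling, with 2 to 3 when a section was left out. Counted per cell volume the differences of Prdx6 (-0.051) and Slc7a11 (-0.0678) turned, and only Cbs stayed higher among the 3. Between dorsal and ventral striatum 2 genes were called, and 1 with DESeq2, with cell volume as offset, with mixed cells kept and with the plain rule of 3 markers for mixed cells. Leaving out a section gave 1 to 2. For the interaction of age and zone 0 genes were called, and fits that left out a section again kept 1 section at that age. Prdx6 was higher in ependymal-like than astrocyte-like cells per cell volume (-0.34). Without TMM scaling the share of called genes that were higher moved from 54.2% to 28% for border against inner fibroblast-like cells and from 45.5% to 28.6% for the interaction in oligodendrocyte-like cells. The causes were not tested. A single finer clustering left 33 to 74 inner fibroblast-like cells a section, under the minimum of 50 in some, so border against inner cells could not be tested there. Mgst1 and Slc6a6 had the fewest transcripts, 3830 to 9069 and 3417 to 10116 a section. The tests within single zones were chosen after seeing the data.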
